A study of Mus musculus with 12 samples.

Results

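The enzymes of proline, hydroxyproline and glyoxylate breakdown Hoga1, Pipox, Agxt, Grhpr, Hao1, Prodh and Aldh4a1, were described across livers with and without p53 on a normal and a high-fat diet. They are 7 of the 52636 genes in the count files, found by matching Ensembl identifiers to mouse symbols, and all 7 passed the filter on low counts that left 14433 genes for testing. The set was chosen by a measured value, the higher read counts of Hoga1 and Pipox in p53 knockout livers, which were known when the genes were listed. Every difference between knockout and wild type is therefore given for the 7 genes as a description, without a test. The difference between the diets, averaged over both genotypes, does not use that contrast and was tested.

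RNA was sequenced in 12 liver libraries of C57BL/6 mice at 12 weeks of age, 3 libraries in each of 4 groups. These were p53 wild type on normal diet (wt_normal), p53 knockout on normal diet (ko_normal), wild type on high-fat diet (wt_HFD) and knockout on high-fat diet (ko_HFD). No source used here gives the knockout allele, how long the diets were fed, or the hour and feeding state at sampling. The labels do not state that each library is a different mouse, so p-values cover only library-to-library spread, part of which may be technical.

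Hydroxyproline from collagen turnover and the diet is broken down in mitochondria to glyoxylate, which the liver must remove because it is otherwise oxidised to oxalate, the anion of most kidney stones. Peroxisomes hold a second source of glyoxylate, glycolate, and the transaminase that turns glyoxylate into glycine. Inherited loss of AGXT, GRHPR or HOGA1 in people causes the primary hyperoxalurias, and HAO1 is a drug target in that disease.

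The steps run as follows. Prodh2 oxidises hydroxyproline and Prodh oxidises proline. Aldh4a1 serves both routes as the next dehydrogenase, and the aspartate aminotransferase Got2 then forms 4-hydroxy-2-oxoglutarate. Hoga1 splits that compound into glyoxylate and pyruvate. Hao1 makes glyoxylate from glycolate in peroxisomes, Agxt transaminates glyoxylate to glycine there, and Grhpr reduces glyoxylate to glycolate in the cytosol and mitochondria. Ldha can oxidise glyoxylate to oxalate. Pipox, a peroxisomal oxidase of pipecolate and sarcosine, belongs to lysine and glycine metabolism rather than to this route.

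Hoga1 lies on chromosome 19 from 42045610 to 42070953, Pipox on chromosome 11 from 77880615 to 77894096 and Agxt on chromosome 1 from 93135240 to 93145421. Grhpr lies on chromosome 4 from 44981395 to 44990734 and Aldh4a1 on the same chromosome from 139622866 to 139649690. Hao1 lies on chromosome 2 from 134497361 to 134554368 and Prodh on chromosome 16 from 18060357 to 18090203. All are protein-coding genes, with positions of GENCODE M21 on build GRCm38, which are not the coordinates the authors used. Dgcr6 overlaps Prodh on the opposite strand and had 799 to 1603 counts per library. Whether the counting used strand is not stated by any source used here, so part of the Prodh count could belong to Dgcr6. Genes that overlap Hoga1 or Aldh4a1 had at most 8 counts in a library.

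Because Hoga1 and Pipox varied together from library to library, as shown further on, the sequence before their start sites is given here, with that of Grhpr, whose level went the other way on the high-fat diet in wild type. RefSeq promoter sequence on GRCm38.p6 was matched for all 7 genes, and only stretches outside annotated untranslated regions are shown, 5′ to 3′ on the gene's strand. They are chr19:42045620-42045791 on the plus strand for Hoga1, chr11:77894097-77894122 on the minus strand for Pipox and chr4:44981144-44981393 on the plus strand for Grhpr. Capitals mark the GC box.
Hoga1: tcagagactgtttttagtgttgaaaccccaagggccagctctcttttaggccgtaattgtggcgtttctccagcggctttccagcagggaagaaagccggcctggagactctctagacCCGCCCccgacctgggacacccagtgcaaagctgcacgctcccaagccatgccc
Pipox: caaagtcctgagacaaagatcataat
Grhpr: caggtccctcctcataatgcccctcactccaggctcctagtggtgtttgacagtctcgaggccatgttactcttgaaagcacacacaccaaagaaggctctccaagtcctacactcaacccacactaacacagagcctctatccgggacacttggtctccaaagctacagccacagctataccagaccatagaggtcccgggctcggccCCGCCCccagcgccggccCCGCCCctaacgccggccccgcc

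GENCODE begins the Hoga1 gene model at 42045610, so the Hoga1 stretch lies inside that model although outside its annotated untranslated regions. The Prodh window, 18089141 to 18089440, also lies wholly inside its gene model. Of the Pipox window, 77893823 to 77894122, only the 26 bases shown lie outside the gene model. For these genes the search below thus covered mostly or only sequence within the gene model. The motifs named here were searched on both strands of the 250 bases before each RefSeq start. The GC box (GGGCGG) was found in Hoga1, with its first base 132 bases before the start, and in Grhpr, at 41 and 23 bases before it, and 32.7% of the 32817 mouse promoters of the same length hold one. A C/EBP core (TTGCNNAA) was found in Hao1, 86 bases before the start, against 9.57% of promoters. The other motifs had no match in any of the 7 windows. They were an HNF4 site (CAAAGTCCA, in 0.384% of promoters), the nuclear receptor direct repeat 1 (0.0335%), an HNF1 site (0.00914%), an E-box (CACGTG, 6.02%), a D-box (TTATGTAA, 0.817%), a FOXA core (TGTTTAC, 3.16%), a TATA box (TATAAA, 12.4%) and the p53 half-site (7.12%). The HNF4 site shares letters with the direct repeat, and a lack of these letters in a window says nothing about binding elsewhere.

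Total counts per library ran from 15465187 to 20492567, and the 7 genes had between 873 and 9921 counts in every library. Levels are given as normalised read counts, CPM (counts scaled to a common library total, with edgeR's TMM factors). Trp53, which encodes p53, was at 8.52 to 24.4 CPM in the 6 wild-type libraries and at 0.272 to 1.62 CPM in the 6 knockout libraries, without overlap. Among the 12 libraries, 2 stood apart in their share of skeletal muscle or mitochondrial counts. wt_normal replicate 2 held 1.2% of its counts in skeletal muscle markers, against at most 0.00119% in the others, and ko_normal replicate 1 held 14.6% in mitochondrially encoded genes, against 4.18% to 10.3% in the others. Over all counts, ko_HFD replicate 1 also lay far from its group, as given with the processing. It was kept wherever those 2 were left out together.

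Per kilobase of exon, the mean level over the 12 libraries was highest for Grhpr at 244 ± 71 CPM per kb (SD, n = 12), followed by Agxt at 185 ± 46. Pipox at 85.3 ± 30 and Hao1 at 80.2 ± 22 came next, then Hoga1 at 49.9 ± 17, Prodh at 37.8 ± 13 and Aldh4a1 at 34.3 ± 4.7 CPM per kb. Only the step from Agxt to Pipox was wider than the SDs of the 2 neighbours together. Prodh2, the liver enzyme that starts hydroxyproline breakdown, stood at 183 ± 46 CPM per kb. The order varied between groups. In wt_normal Agxt (204 CPM per kb) was above Grhpr (189), and in wt_HFD Hao1 (94.8) was above Pipox (52.2) and Hoga1 (28.0) was the lowest of the 7. The order also depended on exon length, which joined all annotated exons of a gene. It was 7797 bases for Prodh and 4907 for Aldh4a1, against 1603 (Grhpr) to 2470 (Pipox) for the others. Without division by length, the median of Prodh was 268 CPM, above Pipox (207), Hao1 (193), Aldh4a1 (167) and Hoga1 (115).

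The level of Hoga1, the aldolase that releases glyoxylate, was lowest in wild type on the high-fat diet and highest in knockout on the normal diet. It was 109, 85.1 and 92.4 CPM in wt_normal and 170, 142 and 151 CPM in ko_normal. On the high-fat diet it was 70.8, 56.2 and 62.7 CPM in wt_HFD and 121, 152 and 140 CPM in ko_HFD. Every knockout library was above every wild-type library, on both diets, and every wt_HFD library was below every wt_normal library. The knockout libraries of the 2 diets overlapped. Group means were 95.5 ± 12 CPM in wt_normal, 154 ± 14 in ko_normal, 63.2 ± 7.3 in wt_HFD and 138 ± 16 in ko_HFD (SD, n = 3). In bulk tissue, fewer cells of a type and less RNA per cell cannot be told apart.

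Pipox had the same order of group means at a higher level. It was 218, 132 and 187 CPM in wt_normal, 369, 257 and 267 CPM in ko_normal, 148, 118 and 121 CPM in wt_HFD and 196, 254 and 261 CPM in ko_HFD. The knockout libraries again lay wholly above the wild-type libraries on each diet, while the diets overlapped in each genotype. Group means were 179 ± 44 CPM in wt_normal, 298 ± 62 in ko_normal, 129 ± 16 in wt_HFD and 237 ± 36 in ko_HFD (SD, n = 3).

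**Figure D1:**
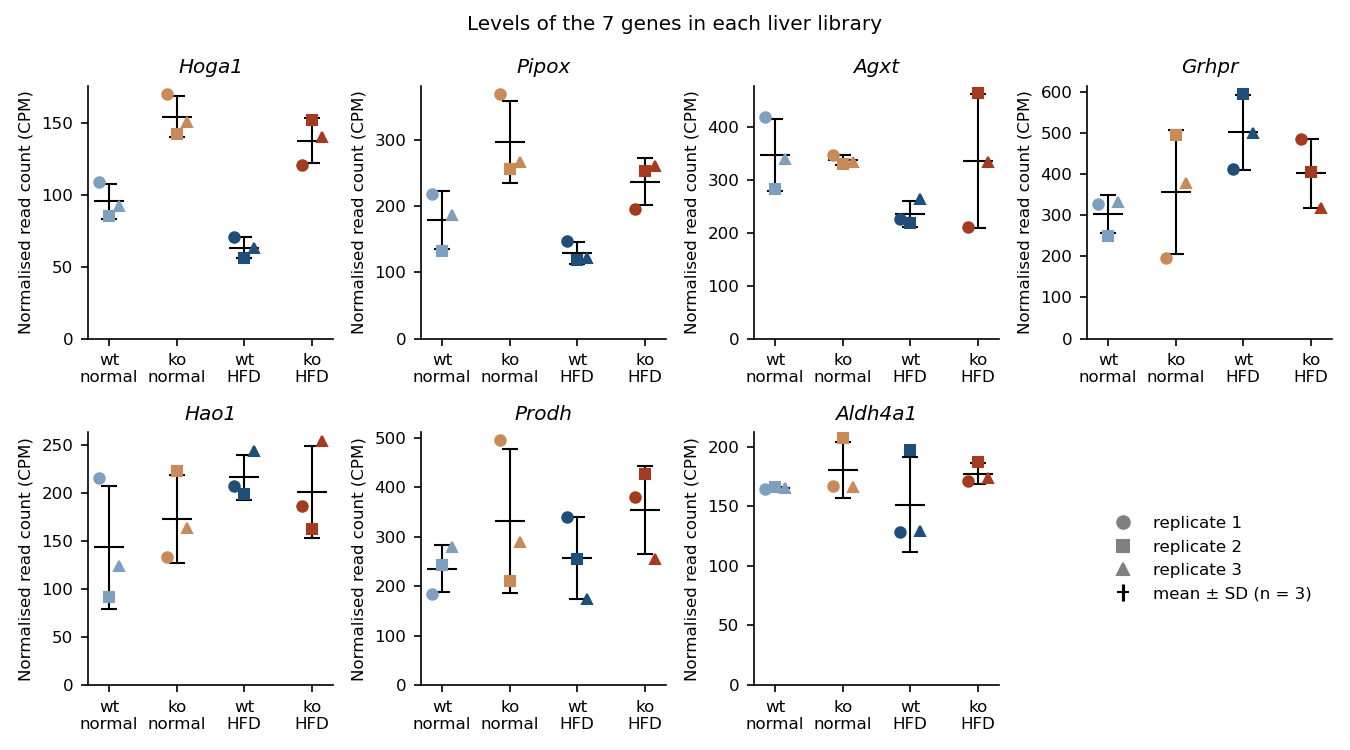
Normalised read counts in CPM (vertical axis, from 0) of the 7 genes in the 4 groups (horizontal axis), with 1 marker per library, shaped by replicate number, and bars for the mean ± SD of 3 libraries. The knockout libraries of Hoga1 and Pipox sit above the wild-type libraries on each diet, while the groups of the other 5 genes overlap between genotypes.

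The fitted difference of ko from wt was 0.69 (log2, SE 0.16) on normal diet and 1.12 (SE 0.17) on the high-fat diet for Hoga1. For Pipox it was 0.73 (SE 0.22) and 0.88 (SE 0.22). These are the values for which the set was chosen and carry no test. Among the 7 genes, 2 had groups that did not overlap on normal diet, against 22.8% of all tested genes in either direction, and the same 2 on the high-fat diet, against 13.6%. Groups lay apart on both diets with ko higher for 1.86% of tested genes. Without the 2 libraries that stood apart, the normal-diet difference was 0.54 for Hoga1 and 0.37 for Pipox, against 0.69 and 0.73 with all libraries.

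In the other 5 genes, the CPM of wild type and knockout overlapped on both diets. Averaged over diets, the fitted log2 difference of ko from wt was 0.48 (SE 0.23) for Prodh, the proline dehydrogenase that is a known p53-induced gene, 0.24 (SE 0.18) for Agxt and 0.18 (SE 0.13) for Aldh4a1. It was 0.08 (SE 0.21) for Hao1 and -0.05 (SE 0.21) for Grhpr, and the sign of those 2 depended on which library was left out. With ko_HFD replicate 2 left out the Agxt value was 0.09, with ko_HFD replicate 1 left out it was 0.38. The Prodh value was 0.28 without ko_normal replicate 1 and the Aldh4a1 value 0.31 without wt_HFD replicate 2. The set spanned -0.05 to 0.91 with a median of 0.24, beside a median of -0.01 over all tested genes, of which 1.16% were called in this contrast. On normal diet, leaving out the 2 libraries that stood apart brought the Prodh difference from 0.49 to 0.10.

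The summed level of hepatocyte markers was higher in knockout, but their mean log2 level overlapped between genotypes. The summed level of 10 hepatocyte markers was 61500 to 82500 CPM in wt_normal and 96500 to 107000 CPM in ko_normal, and 80200 to 90200 CPM in wt_HFD and 105000 to 110000 CPM in ko_HFD, without overlap on either diet. Alb, the serum albumin gene, made up 35.6% of that sum and had 23200 CPM in wt_normal and 42700 CPM in ko_normal on average. Only 7 of the 10 markers were higher in ko averaged over diets, with a median log2 difference of 0.11 and 1 called. The mean log2 level of the 10 markers, in which each counts alike, was 0.26 higher in ko on normal diet and 0.12 higher on the high-fat diet, with overlapping groups on both. All 10 endothelial markers were lower in ko, with a median of -0.73 and 2 called, as were 9 of 10 stellate cell and fibroblast markers, with a median of -0.82 and 1 called. The stellate and fibroblast markers summed to 854 CPM in wt_normal replicate 2, the library with muscle transcripts, and to 185 and 234 CPM in the other wt_normal libraries, and on the high-fat diet 7 of the 10 were lower in ko, with a median of -0.46. None of the hepatocyte, endothelial or stellate markers was at 0 in any group.

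Per 1000 CPM of the summed hepatocyte markers, Hoga1 stood at 1.33 ± 0.054 CPM in wt_normal and 1.51 ± 0.22 in ko_normal (SD, n = 3), a ratio of 1.14 with overlapping groups, where the ratio of the CPM means was 1.62. On the high-fat diet it stood at 0.749 ± 0.043 and 1.27 ± 0.17, a ratio of 1.7 without overlap, where the ratio of the CPM means was 2.18. Pipox gave ratios of 1.19 with overlap on normal diet and 1.44 without overlap on the high-fat diet. Relative to the same sum, Agxt (ratio 0.688) and Aldh4a1 (0.754) were lower in ko without overlap on normal diet. Grhpr (0.618) was so on the high-fat diet, and the remaining comparisons of the other genes overlapped. When the mean log2 level of the 10 markers was subtracted instead, so that each marker counted alike, Hoga1 differed by 0.44 on normal diet and 1.0 on the high-fat diet, and Pipox by 0.49 and 0.75, all without overlap. With this second reference the genotypes overlapped on both diets for Agxt, Aldh4a1 and Grhpr. The share of all tested genes without overlap relative to either reference was not computed. In CPM it was 22.8% on normal diet and 13.6% on the high-fat diet. The size of the normal-diet differences thus varied with the hepatocyte reference. The part of cell composition in them was not tested. Kidney tubule markers, of a tissue that also expresses these enzymes, summed to 0.153 to 1.43 CPM, with Slc34a1 and Umod at 0 in every group.

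**Figure D2:**
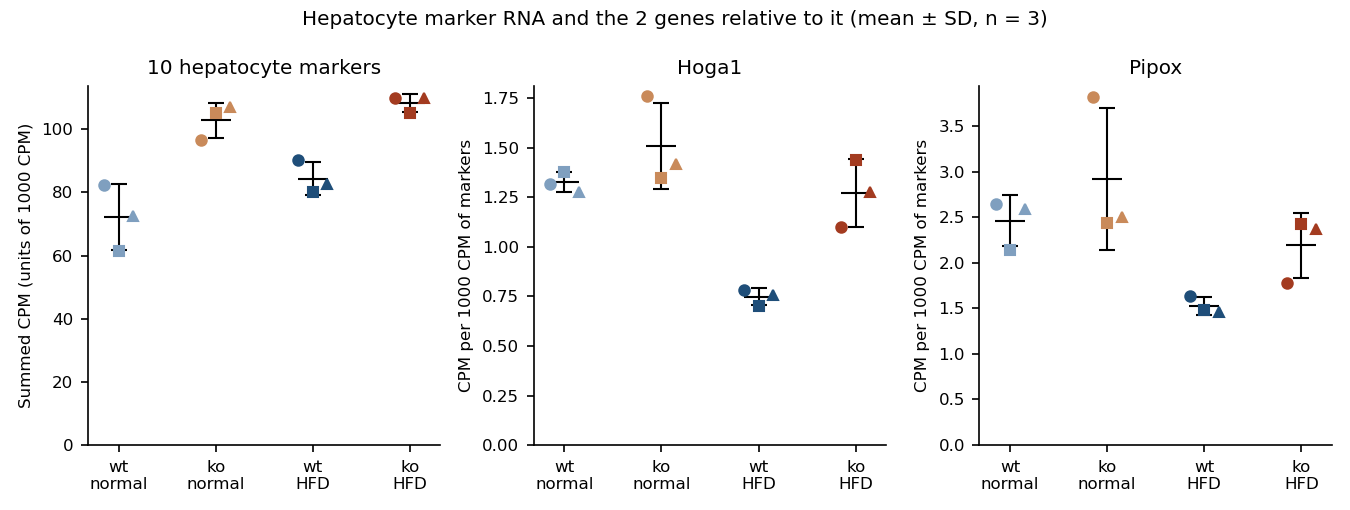
Left, summed CPM (axis in units of 1000 CPM) of 10 hepatocyte markers by group. Centre and right, Hoga1 and Pipox in CPM per 1000 CPM of those markers, with markers for libraries, shaped by replicate number, and bars for mean ± SD of 3 libraries. The marker sum is higher in both knockout groups, and relative to it Hoga1 overlaps between genotypes on normal diet (1.33 and 1.51 on average) and not on the high-fat diet (0.749 and 1.27).

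Diet was the comparison that the choice of genes did not use. On the high-fat diet, averaged over genotypes, Hoga1, Pipox and Agxt had lower fitted levels, Grhpr and Hao1 higher ones, and Prodh and Aldh4a1 differed least. The log2 values of Grhpr and Hao1 were 0.45 (SE 0.21) and 0.41 (SE 0.21), and 0.25 and 0.21 without both libraries that stood apart. That of Agxt was -0.28 (SE 0.18), and -0.15 without ko_HFD replicate 1. None of the 7 genes was called by edgeR's quasi-likelihood test at a Benjamini-Hochberg adjusted p under 0.05, a threshold that 1.04% of the 14433 tested genes passed. The median over the set was -0.07, beside -0.02 over all tested genes.

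Hoga1 had a log2 difference of -0.38 (SE 0.12, 95% confidence interval -0.63 to -0.13), a 1.3-fold lower level, with an edgeR adjusted p of 0.124. DESeq2's Wald test gave -0.37 with an adjusted p of 0.0499, the only alternative of 18 in which a member passed the threshold. That test called 752 genes in this comparison, where edgeR called 150. The adjusted p of Hoga1 ranged up to 0.282. Pipox had -0.40 (SE 0.16, interval -0.74 to -0.06, edgeR adjusted p 0.208). Both kept their sign in all 18 alternatives. Both were picked for a genotype difference, which favours genes of small spread within groups, and the diet test uses that same spread. Their SEs, intervals and adjusted p could therefore be too favourable.

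Agxt, the transaminase that detoxifies glyoxylate, was 418, 282 and 339 CPM in wt_normal and 225, 218 and 263 CPM in wt_HFD. All 3 wt_HFD libraries lay below the wt_normal libraries. It was 347, 330 and 334 CPM in ko_normal and 211, 464 and 333 CPM in ko_HFD, where ko_HFD spread around the narrow ko_normal range. The log2 difference between diets was -0.56 in wt (SE 0.25, interval -1.10 to -0.02, edgeR adjusted p 0.28). In ko the fitted ratio of HFD to normal diet was 0.997, with a log2 interval of -0.54 to 0.53 and an edgeR adjusted p of 1.

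Grhpr, the glyoxylate reductase, was 328, 250 and 332 CPM in wt_normal and 411, 594 and 499 CPM in wt_HFD, where all 3 libraries lay above those of wt_normal. It was 195, 494 and 377 CPM in ko_normal and 484, 404 and 317 CPM in ko_HFD, which overlapped. The log2 difference between diets was 0.72 in wt (SE 0.30, interval 0.08 to 1.36, edgeR adjusted p 0.241) and 0.18 in ko (SE 0.29, interval -0.46 to 0.81, edgeR adjusted p 0.961).

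Hao1, the glycolate oxidase, was 215, 91.4 and 124 CPM in wt_normal and 207, 199 and 243 CPM in wt_HFD. It was 133, 223 and 163 CPM in ko_normal and 186, 162 and 254 CPM in ko_HFD. The diets overlapped in both genotypes, in wt because wt_normal replicate 1 was as high as the wt_HFD libraries. The log2 difference was 0.59 in wt (SE 0.30, edgeR adjusted p 0.33), and 0.22 in ko (SE 0.30, edgeR adjusted p 0.953). The value in wt was 1.01 without wt_normal replicate 1, 0.38 without wt_normal replicate 2 and 0.36 without both libraries that stood apart.

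Prodh was 185, 242 and 280 CPM in wt_normal, 495, 211 and 290 CPM in ko_normal, 341, 256 and 174 CPM in wt_HFD and 380, 428 and 256 CPM in ko_HFD. Aldh4a1 had the narrowest range of the 7 over the 12 libraries, at 164, 166 and 165 CPM in wt_normal and 167, 207 and 166 CPM in ko_normal, and at 128, 197 and 129 CPM in wt_HFD and 171, 187 and 174 CPM in ko_HFD. All groups overlapped between diets in both genes. Averaged over genotypes, the log2 difference between diets was 0.11 for Prodh (SE 0.23, interval -0.39 to 0.61) and -0.07 for Aldh4a1 (SE 0.13, interval -0.35 to 0.21), with edgeR adjusted p of 0.839 and 0.806. Without ko_normal replicate 2 the Prodh value was -0.00, and without wt_HFD replicate 1 it was -0.02.

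**Figure D3:**
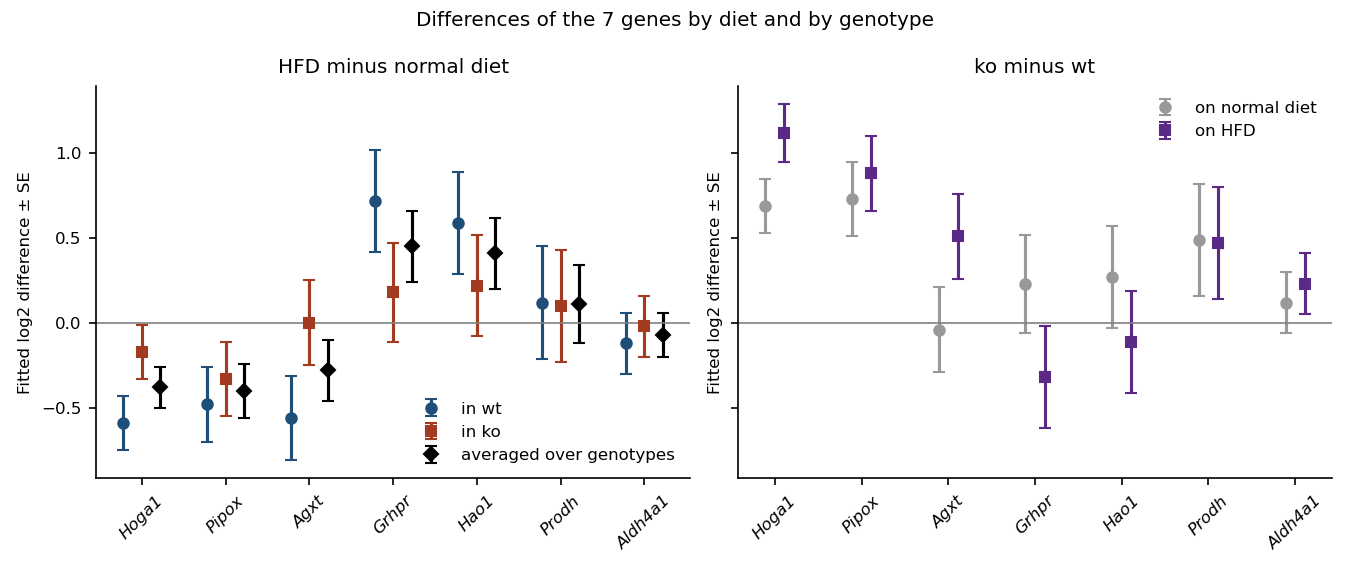
Fitted log2 differences ± SE of the 7 genes, left for HFD against normal diet in wt, in ko and averaged over genotypes, right for ko against wt on each diet. Hoga1, Pipox and Agxt lie below 0 and Grhpr and Hao1 above 0 for diet in wt, with smaller values in ko, and only Hoga1 and Pipox lie more than 0.6 above 0 for genotype on both diets.

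In wild type, 1 of the 7 genes (Grhpr) was wholly higher and 2 (Hoga1 and Agxt) wholly lower on the high-fat diet, against 21.9% of all tested genes in either direction. In knockout none of the 7 had diets that did not overlap, against 11.4% of tested genes. The fitted diet differences were smaller in size in ko than in wt for all 7 genes, as they were for 62.1% of all tested genes. For Prodh they were 0.10 and 0.12, and the sign of the difference between the ko effects turned in 6 of 18 alternatives. The test of that contrast, the difference between the ko effects on the 2 diets, called none of the 5 genes to which it could be applied, with log2 values of 0.55 for Agxt (interval -0.21 to 1.31) and -0.55 for Grhpr (interval -1.45 to 0.36) and edgeR adjusted p of 0.992 and 0.995. For Hoga1 it was 0.43 (SE 0.23) and for Pipox 0.15 (SE 0.31), given without a test. The Pipox value was 0.51 without both libraries that stood apart and -0.02 without wt_normal replicate 1, the Agxt value was 0.25 without ko_HFD replicate 2 and the Grhpr value -0.24 without ko_normal replicate 2. A lack of a call here does not show that the genotypes responded alike, as the intervals spanned more than 1 log2 unit for all 5.

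Across all genes, 0.693% were called for diet in wt, by edgeR, while 0 were called for diet in ko and 0 for the interaction of genotype and diet (0% of tested genes each). At an unadjusted p under 0.05, edgeR gave 812 genes for diet in ko and 725 for the interaction, where 5% of the tested genes is 722, and DESeq2 called 34 and 20.

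Markers of periportal hepatocytes, the zone around the portal tract, were lower in sum on the high-fat diet. Among the 7 genes, Hoga1, Pipox, Agxt and Aldh4a1 had negative diet differences averaged over genotypes, Grhpr, Hao1 and Prodh positive ones, and none was called. The periportal sum was 9480 to 13300 CPM in wt_normal and 3520 to 5420 CPM in wt_HFD, and 8760 to 12500 CPM in ko_normal and 5780 to 7630 CPM in ko_HFD. Averaged over genotypes, 9 of the 10 markers had negative log2 differences with a median of -1.02, and 5 were called lower. By genotype, 10 of the 10 had positive differences of ko from wt on the high-fat diet (median 0.59) and 6 of the 10 on normal diet (median 0.02), and averaged over diets it was 9 of the 10 (median 0.37, 1 called). The difference between the ko effects was positive in all 10, with a median of 0.63 and 0 called. Pericentral markers summed to 9400 to 12300 CPM in wt_normal and 9290 to 11600 CPM in wt_HFD, with a median diet difference of 0.06. In knockout they summed to 8600 to 11100 CPM on normal diet and 10800 to 12700 CPM on the high-fat diet. There 7 of the 10 had positive diet differences, with a median of 0.19. Averaged over genotypes the median was 0.10, and 1 pericentral marker was called higher. None of either list was at 0 in any group, and their part in the diet and genotype differences of the 7 genes was not tested.

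Within groups, Hoga1 was steady for its level, but it was picked for its genotype difference, and such a pick favours genes of small spread. The SD of its log2 CPM about the group means was 0.16, beside a median of 0.24 over 1627 genes of like level (within 1 log2 unit). Prodh, at 0.47, and Grhpr, at 0.42, spread more than 87.7% and 82.8% of genes of their level. ko_normal replicate 1, the library rich in mitochondrial transcripts, held the highest level of 3 of the 7 genes (Hoga1, Pipox and Prodh) and the lowest of 1 (Grhpr).

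The libraries of a group that were high in Hoga1 were also high in Pipox. Over the 12 deviations of log2 CPM from the group means, which leave out the differences between groups, Pearson's r was 0.89 and Spearman's rho 0.86. An exact permutation test that reordered libraries within groups (1296 orders, two-sided) gave p = 0.00154 for r and 0.00231 for rho, or 0.0324 and 0.0486 after Benjamini-Hochberg adjustment over the 21 pairs of the 7 genes. Without the 2 libraries farthest from the median of Hoga1, wt_normal replicate 1 and wt_HFD replicate 1, r was 0.85. The 2 libraries that stood apart had the largest Pipox deviations, -0.41 in wt_normal replicate 2 and 0.33 in ko_normal replicate 1, with Hoga1 at -0.16 and 0.14, and without them r was 0.92 over 10 libraries. Of the other 14432 tested genes, 0.554% had an r with Hoga1 at least as far from 0.

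Hao1 and Prodh deviated in opposite directions, with r = -0.74 and rho = -0.76, and exact permutation p of 0.00617 and 0.00926, which became 0.0648 and 0.0972 after adjustment over the 21 pairs. Without wt_normal replicates 1 and 2, the farthest in Hao1, r was -0.90. Hoga1 and Agxt gave r = 0.72 and rho = 0.75 (exact permutation p 0.0216 and 0.0463, adjusted 0.151 and 0.243), and 0.80 without the same 2 libraries as for Pipox. Hoga1 and Pipox were the only pair of the 21 that passed the adjusted threshold.

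**Figure D4:**
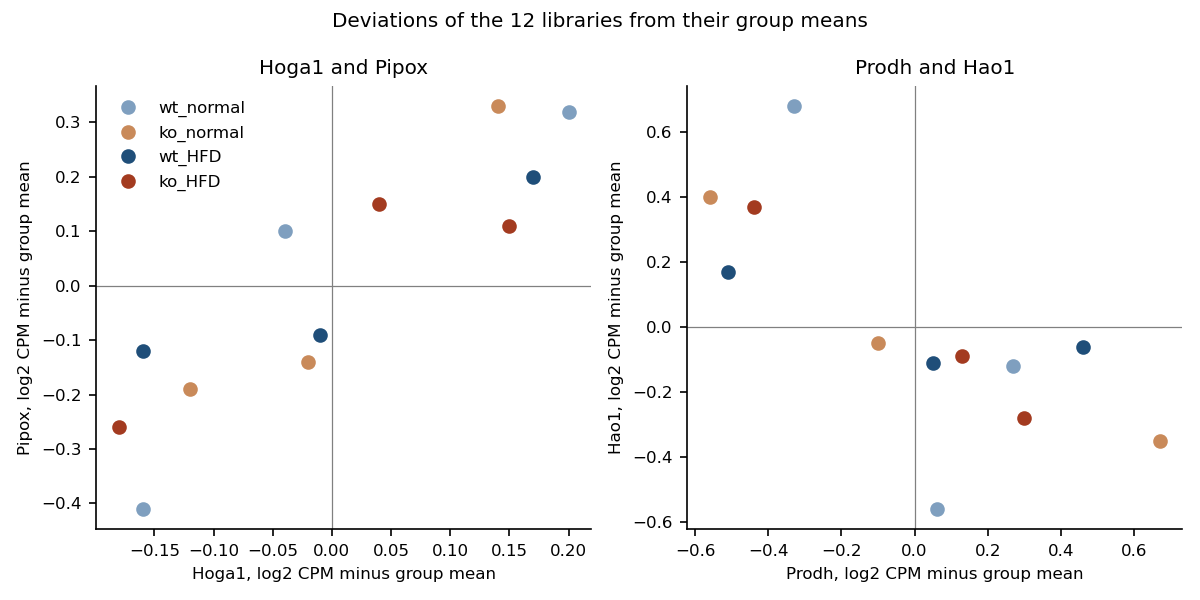
Deviation of each of the 12 libraries from its group mean in log2 CPM, left for Hoga1 (horizontal) and Pipox (vertical), right for Prodh and Hao1, coloured by group. Libraries above their group mean in Hoga1 tend to be above it in Pipox (r = 0.89), and those above it in Prodh tend to be below it in Hao1 (r = -0.74).

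Over all 12 libraries, group differences included, the 3 named genes whose log2 CPM was most like that of Hoga1 were Pipox (r = 0.96), Ddah1 (r = 0.95), which breaks down methylated arginine, and the cytochrome P450 gene Cyp2d22 (r = 0.94). For Ddah1 the r of the deviations from group means was 0.42, and mean levels were 41.4 CPM in wt_normal, 66.9 in ko_normal, 18.5 in wt_HFD and 57.1 in ko_HFD. Those most like Pipox were Fam8a1 (r = 0.97), the urea cycle gene Otc (r = 0.96) and the splicing factor gene Prpf8 (r = 0.96). The r of their deviations with those of Pipox was 0.94 for Fam8a1, 0.93 for Otc and 0.91 for Prpf8, beside 0.89 for Hoga1. Within groups, Pipox thus moved with genes outside the set too. Fam8a1, Otc and Prpf8 were chosen for the highest r with Pipox in the same libraries, which favours a high r of deviations. Their values therefore cannot be ranked against that of Hoga1. Mean levels of Otc were 191, 335, 160 and 243 CPM in the same order of groups. These values describe 12 libraries that share 4 groups, and carry no p.

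The remaining enzymes of the route showed no called difference. Prodh2 had mean levels of 369 ± 50 CPM in wt_normal, 471 ± 110 in ko_normal, 481 ± 140 in wt_HFD and 479 ± 150 in ko_HFD (SD, n = 3). Averaged over genotypes its log2 difference between diets was 0.20 (SE 0.19, edgeR adjusted p 0.613), and averaged over diets its difference between genotypes was 0.17 (SE 0.19, edgeR adjusted p 0.659). Got2 stood at 523 ± 26, 552 ± 110, 666 ± 60 and 656 ± 60 CPM in the same order of groups, with 0.30 for diet (SE 0.13, edgeR adjusted p 0.249) and 0.03 for genotype (SE 0.13, edgeR adjusted p 0.926).

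Ldha, the lactate dehydrogenase that also forms oxalate, was 1240, 958 and 1300 CPM in wt_normal, 209, 1570 and 1080 CPM in ko_normal, 1140, 2250 and 2200 CPM in wt_HFD and 743, 1070 and 951 CPM in ko_HFD. The low value belonged to ko_normal replicate 1, and the ko_HFD libraries all lay below the wt_HFD libraries. The log2 difference of ko from wt averaged over diets was -0.65 (SE 0.36, edgeR adjusted p 0.355), and -0.41 without ko_normal replicate 1.

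The neighbouring pathways were described by 6 lists of 77 distinct genes, of which 75 were tested and none is among the 7. In the diet comparison averaged over genotypes 1 of the 75 rose and 1 fell, where 1.04% of all tested genes were called. In the comparison of diets in wt 1 fell, against 0.693% called in either direction and 0.263% called lower. For diet in ko and for the interaction 0 were called. For genotype averaged over diets 3 rose and 0 fell, against 1.16% called in either direction and 0.790% called higher. Of 12 genes of proline and hydroxyproline metabolism and collagen prolyl hydroxylation, 0 were called, with median log2 differences of 0.10 for diet and -0.13 for genotype. Of 21 genes of peroxisome assembly and oxidation, 0 were called, with medians of -0.04 and 0.12. The 13 liver transcription factors had medians of 0.19 and 0.32, beside -0.02 and -0.01 over all tested genes.

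Got1, the cytosolic aspartate aminotransferase, fell on the high-fat diet, by 1.41 on the log2 scale averaged over genotypes (SE 0.23, 2.66-fold, edgeR adjusted p 0.0158) and by 1.86 in wt (SE 0.33, edgeR adjusted p 0.0288). It was 239, 518 and 614 CPM in wt_normal, 183, 147 and 163 CPM in ko_normal, 116, 83.8 and 177 CPM in wt_HFD and 82.4, 76.2 and 95.3 CPM in ko_HFD. All HFD libraries lay below the normal-diet libraries of their genotype. The first call was lost without ko_HFD replicate 1 (adjusted p 0.0556) and without both libraries that stood apart (0.0736). The second was lost in a fit of only the groups compared (0.112), without both libraries that stood apart (0.105) and without any 1 of 5 libraries, wt_normal replicates 2 and 3, ko_normal replicate 3 and wt_HFD replicates 1 and 2 (0.0553 to 0.0963).

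Foxa3, a liver transcription factor gene, rose by 0.50 on the log2 scale on the high-fat diet averaged over genotypes (SE 0.11, edgeR adjusted p 0.0484). It was 72.5, 58.7 and 77.9 CPM in wt_normal, 66.4, 75.9 and 78.5 CPM in ko_normal, 98.2, 92.8 and 104 CPM in wt_HFD and 108, 95.7 and 109 CPM in ko_HFD. The diets did not overlap in either genotype. The call was nevertheless lost without each of the 12 libraries in turn (adjusted p 0.0572 to 0.109, log2 0.45 to 0.55) and without both libraries that stood apart (0.133).

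Of 15 genes of glycine and serine metabolism, 7 had positive and 8 negative differences of ko from wt averaged over diets (median -0.04), and 2 rose, Sardh and Shmt2. Of 6 genes of lysine and pipecolate breakdown, 5 were positive (median 0.25) and 1 rose, Dhtkd1. Sardh, which like Pipox oxidises sarcosine, rose by 0.75 on the log2 scale (SE 0.13, 1.68-fold, edgeR adjusted p 0.0234). It was 377, 343 and 466 CPM in wt_normal, 567, 691 and 634 CPM in ko_normal, 417, 285 and 328 CPM in wt_HFD and 605, 585 and 639 CPM in ko_HFD, without overlap between genotypes. The call was lost without wt_normal replicate 2, ko_normal replicate 3, wt_HFD replicate 3 or ko_HFD replicate 3 (adjusted p 0.0553 to 0.0706), and without both libraries that stood apart (0.0614).

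Shmt2, the mitochondrial enzyme that interconverts serine and glycine, rose by 0.67 (log2, SE 0.12, 1.59-fold, edgeR adjusted p 0.0234). It was 171, 131 and 167 CPM in wt_normal, 273, 220 and 236 CPM in ko_normal, 180, 141 and 147 CPM in wt_HFD and 255, 249 and 262 CPM in ko_HFD, again without overlap between genotypes. The call was lost without any 1 of 6 libraries, replicates 2 and 3 of wt_normal and of wt_HFD and replicate 3 of ko_normal and of ko_HFD (adjusted p 0.0503 to 0.0666), and without both libraries that stood apart (0.0689).

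Dhtkd1, of lysine breakdown, rose by 0.84 (log2, SE 0.18, 1.79-fold, edgeR adjusted p 0.0424). It was 23.2, 24 and 21.7 CPM in wt_normal, 50.5, 27.9 and 42.9 CPM in ko_normal, 20, 12.6 and 12.4 CPM in wt_HFD and 20.6, 32.4 and 29.3 CPM in ko_HFD. The genotypes did not overlap on either diet. The call was lost without any 1 of 9 libraries, all but ko_normal replicate 2, wt_HFD replicate 1 and ko_HFD replicate 1 (adjusted p 0.0664 to 0.108), and without both libraries that stood apart (0.16). The hepatocyte marker sum, given above, was higher in both knockout groups beside these 3 genes, and its part in their differences was not tested.

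**Figure D5:**
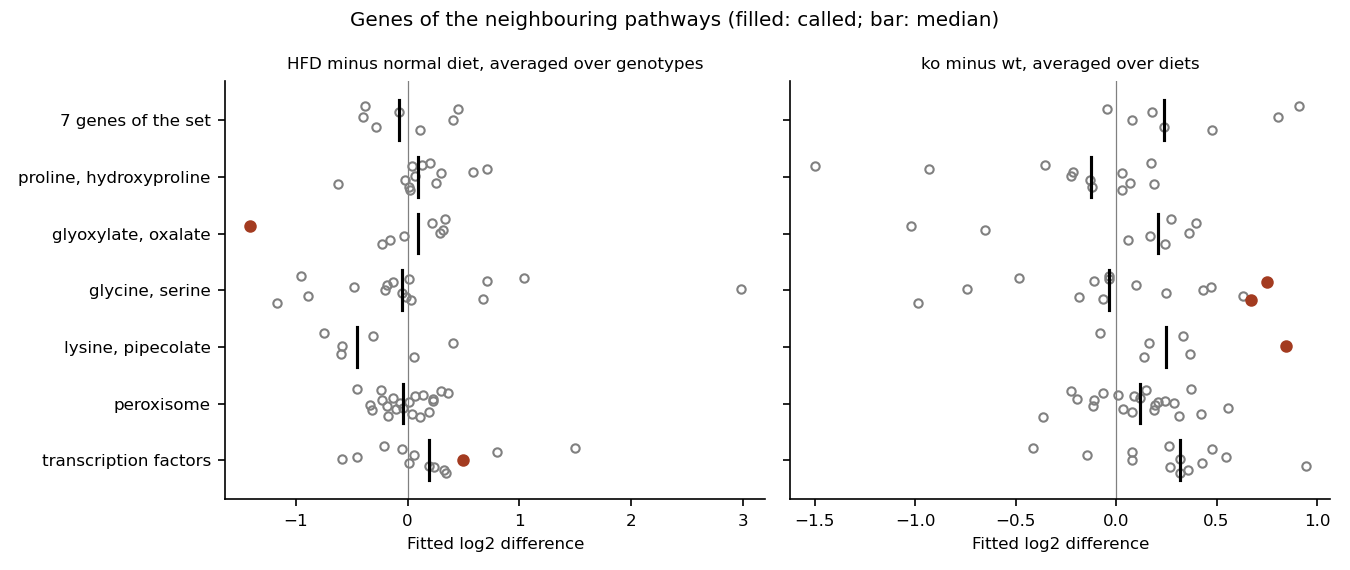
Fitted log2 differences (horizontal axis) of the 7 genes and of the tested genes of 6 neighbouring lists (vertical axis), left for diet averaged over genotypes, right for genotype averaged over diets. Each circle is a gene, filled circles passed the edgeR threshold (not applied to the 7 genes on the right) and bars mark list medians. Got1 and Foxa3 are filled on the left, and Sardh, Shmt2 and Dhtkd1 on the right.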

How the data were processed

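The authors deposited raw read counts per gene, whole numbers in 1 file per library. The submitters' processing notes list Bowtie 0.12.2 and CASAVA 1.8, with builds mm8 and mm9 whose roles they leave out. No source used here states the counting tool, its annotation or its use of strand. The 7 genes, the pathway and marker lists and the tests were chosen with earlier results of these data known. Genes were named by a rule: the 7 genes, Prodh2, Got2, Ldha, up to 4 called genes per pathway list and comparison, the 3 genes most alike to Hoga1 and to Pipox, and Trp53.

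Counts were matched to symbols for 52403 of 52636 identifiers, filtered with filterByExpr of edgeR 4.0.16 and scaled by TMM. One quasi-likelihood fit of the 4 groups to 12 libraries (8 residual degrees of freedom) gave two-sided F-tests, adjusted by Benjamini-Hochberg over 14433 genes and called under 0.05. Correlations used log2 CPM with a prior count of 2. The test was also run on simulated counts, in which no library was made to stand apart, and no result here rests on that run. Replicates within a group differed by a chi-square of 39.5 to 199 per degree of freedom. ko_HFD replicate 1 was at 199 and 167 from the other ko_HFD libraries, which were at 58.9 from each other. The values were 190 and 130 for ko_normal replicate 1, and 92.7 and 93.0 for wt_normal replicate 2. Alternatives were other scalings, no filter, DESeq2 1.42.0, the replicate number as a block, only the groups compared, each library left out and, chosen after seeing the data, 2 libraries left out together and levels relative to hepatocyte markers.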

Additional observations from a re-analysis of the deposited data

How the results depend on the processing

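With 3 libraries a group the counts of called genes moved with the settings. For diet averaged over genotypes (150 called) they were 489 with no filter on low counts, 752 with DESeq2's Wald test, 42 without both libraries that stood apart and 45 to 272 when each library was left out in turn. For diet in wt (100) they were 696, 622, 34 in a fit of only the groups compared, 22 and 9 to 131. For diet in ko (0) they were 21, 34, 2 with only the groups compared and 0 to 6 with a library left out. For the difference between the ko effects (0) they were 13, 20, 1 with library totals without mitochondrial and muscle genes and 0 to 1. For genotype averaged over diets (168) they were 644, 792, 48 and 45 to 255. Whether replicate numbers pair the libraries was not settled by the correlations of their deviations from group means. In 18 pairs of the same number r ran from -0.209 to 0.332, and 4 had r over 0.1. Of 12 libraries, 7 were closest to their own number, which some would be by chance. With the replicate number as a block the counts were 104, 91, 0, 0 and 157, and the calls of Foxa3 for diet (adjusted p 0.0593) and Dhtkd1 for genotype (0.0589) were lost. The cause of these shifts was not tested.

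Signs turned only in differences that were not called. By diet in ko, Agxt was at 0.01 with DESeq2's size factors, with DESeq2 and with library totals without mitochondrial and muscle genes, and at 0.03 without both libraries that stood apart, where Grhpr was at -0.11. Ldha was at 0.16 with the block. The difference between the ko effects was, for Prodh, 0.08 with the block and 0.37 without both libraries. With each library left out in turn, log2 differences by diet averaged over genotypes ran from -0.02 to 0.31 for Prodh, and in wt from -0.13 to 0.34. In ko they ran from -0.31 to 0.24 for Agxt, -0.12 to 0.50 for Grhpr, -0.14 to 0.50 for Prodh, -0.08 to 0.09 for Aldh4a1, -0.22 to 0.24 for Prodh2 and -0.52 to 0.53 for Ldha. The difference between the ko effects ran from -0.28 to 0.38 for Prodh, -0.00 to 0.30 for Aldh4a1 and -0.25 to 0.02 for Got2, and the genotype difference from -0.03 to 0.11 for Got2. Of 140 recomputed group means of the 7 genes, 138 moved by less than 1 SD, and Aldh4a1 in wt_normal was 164 CPM with DESeq2's size factors and 179 CPM without TMM factors.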

Other observations

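Markers of the other liver cell types had these levels. Macrophage markers, 10 genes, summed to between 274 CPM, in ko_normal replicate 1, and 710 CPM, in ko_HFD replicate 1, and all 4 groups overlapped. Cholangiocyte markers, 6 genes, summed to between 13.4 and 97.6 CPM, with both extremes in wt_HFD. Lymphocyte markers, 10 genes, summed to 3.41 to 9.04 CPM in 11 libraries and to 40.3 CPM in wt_normal replicate 2, the library with skeletal muscle transcripts. Erythroid markers, 6 genes, were also highest in that library, at 876 CPM, and between 157 and 548 CPM in the others.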
